A study of Homo sapiens with 4 samples.

Results

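HNF1 ChIP-seq peaks of Caco2 cells were searched for strong sites that stood alone along the genome. A region was shared when peaks of both deposited lists overlapped by at least 1 bp, and the overlapping peaks were joined. The members were selected on their measured scores and spacing. They scored 22 or more in both lists, and their midpoint lay more than 10 kb from that of every other shared region. Chromosomes X and Y were left out. Of 2905 shared regions, 368 met the rule, which is 12.7% of them. The score limit alone kept 439 regions, or 15.1%, and 71 of these fell to the distance limit. The X and Y rule removed no strong region, since none of the 56 shared regions on X scored 22 or more in both lists.

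Caco2 is a human colorectal adenocarcinoma line that is used as a model of enterocytes, the absorptive cells of the gut. The study made 2 HNF1 immunoprecipitations and 2 inputs without antibody, all from this 1 line grown in serum-containing medium, and no treatment is named. Each immunoprecipitation has 1 peak list, called against the input of its own number. Whether the replicates were separate cultures is not given in the labels. The antibody field names HNF1, but the extraction text names FOXA2, another liver and gut factor, and the antibody's target was not tested here. Replicate 1 had 11931439 tags and 5060 peaks, and replicate 2 had 18469659 tags and 4955 peaks.

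HNF1, the factor that the antibody field names, is a homeodomain transcription factor that binds DNA as a dimer. Its site is a palindrome made of a pair of inverted half-sites. It is known from liver, kidney, pancreas and gut, where it activates enterocyte genes such as those of brush border enzymes. A ChIP-seq peak marks where immunoprecipitated fragments pile up. It can hold a directly bound motif or DNA reached through partner proteins. Regions are given by hg19 position. The gene annotation and the sequence of these positions were not used here, so no motif was examined and no gene is named.

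The headers name the columns of the original peak table, but not the score column of the deposited lists. That column was read as the tag count of a peak scaled to 10000000 tags and rounded, because its sum was 1.002 and 1.006 times the scaled tags in peaks that the headers of replicates 1 and 2 give. Tag numbers and counting errors below rest on this reading. The limit of 22 then corresponds to 26.2 tags in replicate 1 and 40.6 tags in replicate 2. Members scored from 22 to 125 in replicate 1, with a median of 36 and quartiles of 29 and 46. In replicate 2 they scored from 22 to 113, with a median of 29 and quartiles of 24 and 36. These medians correspond to 43.0 and 53.6 tags. The rule set the lower end of both ranges. Many members lay close to it in replicate 2, where 43 scored exactly 22, against 9 in replicate 1 and 2 in both.

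**Figure D1:**
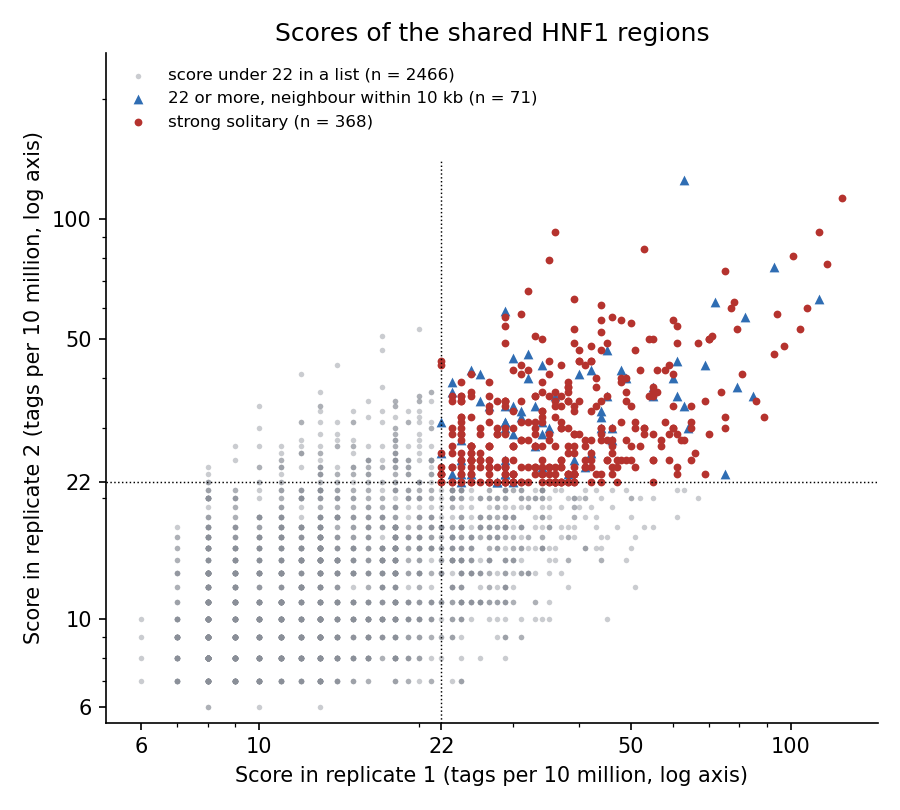
Each point is 1 shared region, with its score in replicate 1 on the horizontal and in replicate 2 on the vertical log axis, in tags per 10000000. Red points are the 368 strong solitary regions, blue triangles the 71 regions of like score with a neighbour within 10 kb, and grey points the regions under the limit of 22 (dotted) in at least 1 list.

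The limits cut through a continuous range, as the plot of scores shows. Just inside the score limit, chr16:87562472-87562759 and chr3:113592740-113592966 scored 22 in both lists. Next came chr12:21719240-21719466 with 23 in replicate 1 and 22 in replicate 2. Just outside, 3 solitary regions missed the limit in replicate 2 by 1 unit although they were high in replicate 1. They were chr11:34622233-34622459 with scores of 63 and 21, chr3:155272931-155273157 with 61 and 21, and chr7:155026575-155026801 with 46 and 21. In total, 35 solitary autosomal regions scored 21 in replicate 2 and at least 22 in replicate 1, and 15 did so the other way round. One unit of score is worth fewer than 2 tags in either library.

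The distance limit also separated near neighbours. Just past it lay chr20:43039869-43040095, which is 10195 bp from its nearest shared region, chr17:56458662-56458888 at 10218 bp and chr3:193819424-193819650 at 10984 bp. Strong regions that just failed were chr12:9284778-9285004, at 9908 bp, and a pair on chromosome 5 whose midpoints are 9439 bp apart. That pair is chr5:156476667-156476893, scored 31 and 33, and chr5:156486106-156486332, scored 61 and 44.

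Members made up 37.4% of the 984 replicate 1 peaks and 57.0% of the 646 replicate 2 peaks that scored 22 or more. A rank of 50 or better was held by 31 members in replicate 1 and by 42 in replicate 2. A rank of 500 or better was held by 279 and 292 of them. Tied peaks share the best rank of the tie, so the peaks up to a rank can outnumber it. In replicate 1, for example, a score of 29 ranked 500 and a score of 28 ranked 574. The other strong peaks were unshared, reached 22 in 1 list alone or had a close neighbour.

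The 20 best ranked members, ordered by the worse of their 2 ranks, scored from 60 to 125 in replicate 1 and from 46 to 113 in replicate 2. All 20 scored higher in replicate 1. The choice by rank favoured this, since a score of 46 ranked 56 in replicate 2 but 139 in replicate 1. The strongest, chr2:62797219-62797490, ranked 4 in replicate 1 and 2 in replicate 2, with scores of 125 and 113. Its nearest shared region, 29.7 kb away, is another member, chr2:62767505-62767731, scored 61 and 29. Second was chr5:145358925-145359151 with scores of 113 and 93 and no shared region within 868.8 kb. Among shared regions both stood alone at 10 kb, and of this pair only the second did so at 100 kb. Peaks of 1 list alone lay 42933 bp and 45638 bp from it, scored 10 and 9.

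Several of the best ranked members had no shared region near them. The region chr12:4124578-4124804 scored 94 and 58, and its nearest shared region lay 1376.3 kb away. On chromosome 11, chr11:123458899-123459125 scored 71 and 51 at 357.0 kb from the nearest. The region chr6:3870142-3870368 scored 60 and 56 at 466.6 kb, and chr2:60707607-60707881 scored 61 and 54 at 388.6 kb. Altogether 7 of the 20 had no other shared region within 300 kb.

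Others sat beside a neighbour that only just escaped the distance limit. The region chr3:193819424-193819650 scored 104 and 53, and a region scored 39 and 25 lay 10984 bp away. On chromosome 20, chr20:43039869-43040095 scored 79 and 53, and a region scored 79 and 38 lay 10195 bp away. The region chr2:219935996-219936222 scored 70 and 50, with a weak neighbour of 18 and 15 at 12.3 kb. The region chr19:33766966-33767192 scored 93 and 46, with a weak neighbour of 13 and 16 at 17.4 kb. In all, 6 of the 20 had another shared region within 20 kb and 10 within 50 kb.

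Others lay between these extremes. The region chr4:75579508-75579734 was nearly equal in the replicates, at 75 and 74, and stood 174.7 kb from its nearest shared region. The region chr1:209827333-209827559 scored 77 and 60 at 125.9 kb, and chr11:119584037-119584263 scored 70 and 50 at 51.4 kb. On chromosome 20, chr20:42187445-42187671 scored 97 and 48, or 2.02 times as much in replicate 1, at 796.7 kb. Rank by the worse list therefore mixed regions that were even between replicates with regions led by replicate 1.

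Score ratios between the replicates are given as a description, since the rule used both scores. The log2 ratio of the replicate 1 score to the replicate 2 score had a median of 0.29, a 1.22-fold higher score in replicate 1, with quartiles of -0.06 and 0.67. Its standard deviation over the 368 members was 0.51, and the counting error of a single ratio had a median of 0.30 on the same scale. Scores were higher in replicate 1 at 251 members (68.2%), higher in replicate 2 at 100 (27.2%) and equal at 17. Most shared regions leaned the same way, with 56.01% of all 2905 higher in replicate 1 and 36.1% higher in replicate 2. Member scores were within 1.5 times of each other at 244 members (66.3%, Wilson 95% interval 61.3% to 70.9%) and over 2 times apart at 29 (7.88%). Over all shared regions these shares were 61.2% and 12.01%. Across the 368 members the scores of the replicates correlated with Pearson's r = 0.51 and with Spearman's rho = 0.34. The member values describe regions of the same 2 libraries whose range the rule truncated at 22.

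The ratio is no measure of occupancy, because each replicate is 1 library with its own tag window and calling settings. Intervals here and below cover counting error only, and regions are not independent replicates. At the solitary regions of lower score the median ratio was 0.17, with a standard deviation of 0.66. The rule used the scores, so this difference was not tested.

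The 5 members most tilted to replicate 1 differed by 1.35 to 1.58 on the log2 scale. The region chr7:413034-413260 scored 69 in replicate 1 and 23 in replicate 2, a log2 ratio of 1.58 with a counting error of 0.27. It was followed by chr15:42304505-42304731 with 89 and 32, chr6:3231868-3232094 with 61 and 23, chr20:32100953-32101179 with 65 and 25, and chr3:185671471-185671697 with 61 and 24. The peaks of the chromosome 15 region were centred on the same base in both lists, and in the other 4 the midpoints were 12 to 29 bp apart. Their disagreement thus lay in height and not in position.

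The tilt to replicate 2 was smaller and rarer. The region chr12:21597212-21597438 scored 36 and 93, or 2.58 times as much in replicate 2, where it ranked 3. It ranked 293 in replicate 1. The region chr2:46233802-46234028 scored 35 and 79, chr5:127421156-127421382 scored 32 and 66, and chr3:95060194-95060450 scored 22 and 44. The fifth, chr11:94335893-94336119, scored 29 and 57. These regions are among the highest of replicate 2 but lie in the middle or lower part of the members in replicate 1.

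Position was not used by the rule beyond the 1 bp overlap, so it was compared between the replicates as a separate measure. At members the midpoints of the 2 peaks were a median of 20 bp apart, with quartiles of 10 and 38 bp. The 95% interval of this median, from order statistics, was 16 to 23 bp. At the 2188 solitary shared regions of lower score the median was 28 bp (26 to 29 bp). The 71 strong regions with a neighbour within 10 kb had a median of 25 bp (15 to 33 bp), whose interval overlaps both. The overlap rule allows distances of up to 184 bp.

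The replicate 1 peak lay wholly inside the wider replicate 2 peak at 294 members, or 79.9% (75.5% to 83.7%). This was the case at 65.9% of all other shared regions and at 66.0% (64.0% to 68.0%) of the solitary ones of lower score. At the 71 strong regions with a neighbour within 10 kb it held for 80.3% (69.6% to 87.9%). The share was 79.3% at solitary regions whose lower score was 18 to 21, so nesting was not particular to the members. Midpoints fell within 10 bp of each other at 102 members, or 27.7% (23.4% to 32.5%), and at 437 of the 2188 lower scored regions (18.4% to 21.7%). Among the 71 strong regions with a neighbour it was 25.4% (16.7% to 36.6%). At 8 members the 2 midpoints were identical.

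**Figure D2:**
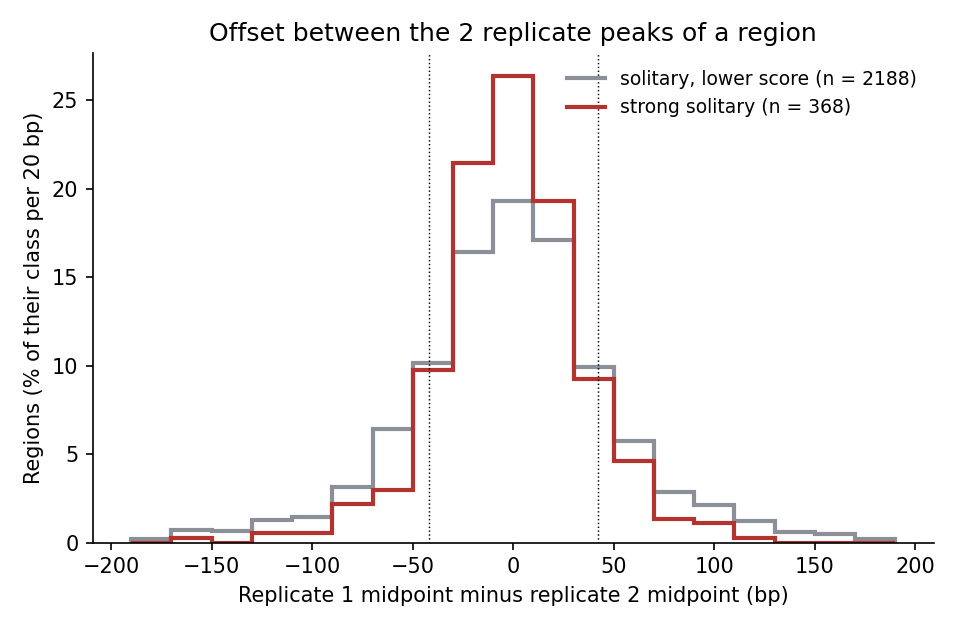
The horizontal axis is the replicate 1 midpoint minus the replicate 2 midpoint in bp, and the vertical axis is the percentage of each class per 20 bp bin. The 368 strong solitary regions (red) are more concentrated around 0 than the 2188 solitary regions of lower score (grey). Between the dotted lines, at 42 bp on either side, the replicate 1 peak lies inside the replicate 2 peak.

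Displacement went about equally often either way. The replicate 1 midpoint had the lower coordinate at 185 members and the higher one at 175, and the median signed offset was -1 bp. The distances were shorter in the higher score bands, though not in every step, and there was no jump at the limit. By the lower of the 2 scores, the median fell from 31 bp at 6 to 9 and 29 bp at 10 to 13 through 24 bp at 14 to 17 to 20.5 bp at 18 to 21. Among members it was 21 bp at 22 to 25, 24 bp at 26 to 29, and 17 bp both at 30 to 39 and at 40 or more.

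The best ranked members followed this pattern, with 18 of 20 midpoint pairs within 42 bp. The exceptions were the strongest region of all, chr2:62797219-62797490, at 87 bp and chr2:60707607-60707881 at 90 bp. Only 8 members, or 2.17%, were more than 100 bp apart, against 6.81% of the lower scored solitary regions. Of the 71 strong regions with a neighbour within 10 kb, 2.82% were. The largest displacement among members was 166 bp at chr21:29628726-29629076, scored 34 and 25. The next were chr5:160350959-160351267 at 124 bp, scored 33 and 36, and chr5:41182896-41183202 at 122 bp, scored 42 and 48. Large displacement was thus seen also at members well above the score limit.

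**Figure D3:**
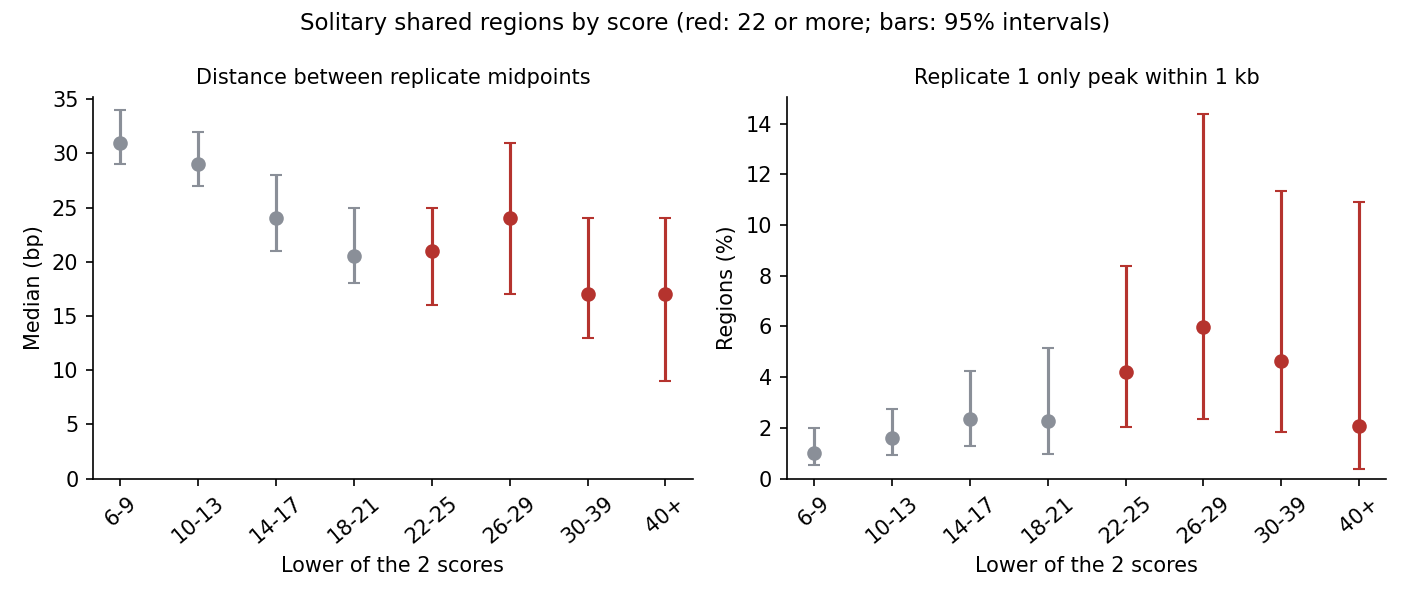
Solitary autosomal shared regions are grouped by the lower of their 2 scores, with members in red. The left panel gives the median distance between the replicate midpoints in bp, and the right panel the percentage of regions with a peak of replicate 1 alone within 1 kb. Bars are 95% intervals, and those of the right panel overlap across the limit of 22.

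Solitary in this rule refers to other shared regions, and it was less complete when every peak was counted. Within 10 kb of their midpoint, 64 members, or 17.4% (13.9% to 21.6%), had a peak that was called in 1 list alone, against 12.4% (11.1% to 13.8%) of solitary regions of lower score. Within 100 kb, 73.9% of members (69.2% to 78.1%) and 59.4% of the lower scored regions (57.3% to 61.4%) had some other peak, shared or not. The median distance to any other peak was 40.1 kb at members (33.0 to 46.4 kb). At solitary regions of lower score it was 67.6 kb (62.3 to 73.7 kb).

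Close companions came mostly from replicate 1. A peak of replicate 1 alone lay within 1 kb of 16 members, or 4.35% (2.69% to 6.95%). The share was 1.81% among all other shared regions and 1.60% (1.15% to 2.22%) among the solitary ones of lower score. A peak of replicate 2 alone lay within 1 kb of 3 members, or 0.815% (0.278% to 2.37%), against 0.946% of all other shared regions. Between 1 and 10 kb the shares of members were 5.71% for replicate 1 (3.76% to 8.57%) and 7.07% for replicate 2 (4.87% to 10.2%), and lower scored regions stood at 4.57% and 6.22%. The intervals of members and lower scored regions were thus apart within 1 kb for replicate 1, and they overlapped between 1 and 10 kb for both lists. Within 100 kb they were apart for both. There 37.8% of members (33.0% to 42.8%) and 27.7% of lower scored regions (25.8% to 29.6%) had a peak of replicate 1 alone. For replicate 2 the shares were 40.2% (35.3% to 45.3%) and 30.3% (28.4% to 32.2%). The 71 strong regions with a neighbour stood at 46.5% and 54.9% there, so such peaks were not particular to the members. Within 1 kb, 0 of these 71 had a peak of replicate 1 alone (0% to 5.13%). At solitary regions with a lower score of 18 to 21 the share was 2.25% (0.966% to 5.16%). Both intervals overlap that of the members.

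The lists differ in the closest spacing that their settings allow. Per the file headers, the minimum distance between peaks was 284 bp for the first replicate and 452 bp for the second. Of the 16 companions, 8 lay within 500 bp, and their distances ran from 294.5 to 932 bp. Their scores ran from 8 to 30, with a median of 13. The part of these settings in the difference between the lists was not tested.

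The region chr11:114080752-114080978, scored 78 and 62, had a replicate 1 companion scored 13 at 589 bp. It is the 1 case among the 20 best ranked members. At chr5:160350959-160351267 the companion scored 30, nearly as much as the region itself with 33 in replicate 1, and lay 390 bp away. This is also the region with the second largest displacement between replicates. At chr11:111205796-111206022, scored 36 and 35, a companion of 22 lay at 391 bp. Only chr6:1228815-1229041 had companions of both lists, 409 bp away in the first and 669 bp away in the second. The highest companion of replicate 2, scored 21, lay 596 bp from chr7:95070375-95070601, which scored 55 and 29. These cases were chosen after their values were seen.

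**Figure D4:**
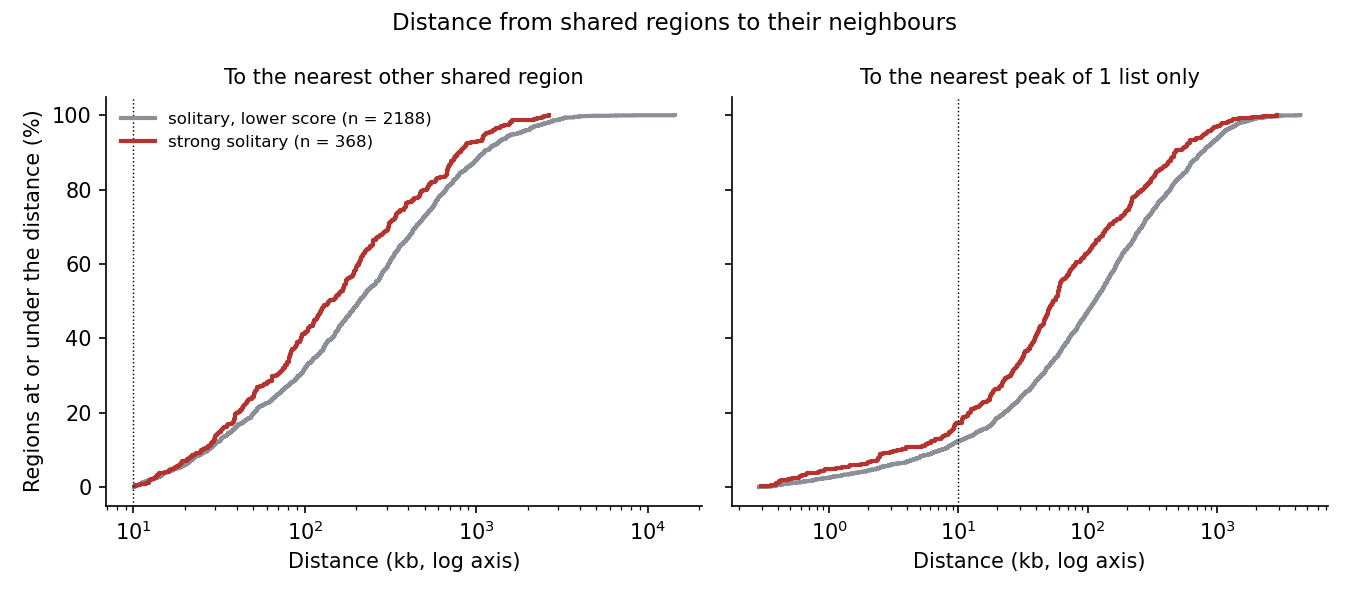
Cumulative percentages of solitary shared regions by distance in kb on a log axis, to the nearest other shared region (left) and to the nearest peak found in 1 list only (right). The curves of the 368 strong solitary regions (red) lie to the left of those of the 2188 regions of lower score (grey) over most of the range. The dotted line marks 10 kb, under which the rule allows no distance in the left panel.

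Beyond the 10 kb limit, members had shared neighbours nearer by than weaker solitary regions did. The nearest other shared region lay at a median of 138.5 kb (113.2 to 174.7 kb), with quartiles of 50.8 and 379.3 kb. For solitary regions of lower score the median was 207.6 kb (191.1 to 225.6 kb). Another shared region stood within 100 kb of 153 members, or 41.6% (36.7% to 46.7%), against 32.0% (30.1% to 34.0%) of the lower scored ones. Within 20 kb the shares were 7.07% and 6.08%, and their intervals overlapped. The median also varied with score inside each class. With a lower score of 6 to 9, 10 to 13, 14 to 17 and 18 to 21 it was 246670, 190073, 182380 and 205274 bp. Among members it was 158753 bp at 22 to 25, 139640 bp at 26 to 29, 152802 bp at 30 to 39 and 110543 bp at 40 or more. Both classes obey the same distance limit, and the part of score and chromosome in the difference between them was not tested.

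The neighbours themselves were more often weak than strong, as were shared regions in general, of which 15.1% were strong. The nearest shared region scored 22 or more in both lists at 70 of 368 members (15.3% to 23.3%), against 15.5% of all other shared regions. At solitary regions of lower score the share was 14.8% (13.3% to 16.3%). These intervals overlap, and without chromosome 20 the share at members was 17.5%. By score it ran from 12.5% (10.4% to 15.0%) at a lower score of 6 to 9 to 27.1% (16.6% to 41.0%) at 40 or more.

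Members are 12.7% of the shared regions, and the rule bars them from lying within 10 kb of each other. The median distance to the nearest other member was 1496.2 kb, with quartiles of 527.6 and 3987.9 kb. Whether this is wide for a set of this size was not tested. Another member lay within 100 kb of 29 members, or 7.88%, and 1 pair lay within 20 kb. That pair is chr17:46873119-46873345, scored 117 and 77, and chr17:46886674-46886900, scored 67 and 49, with midpoints 13.6 kb apart. Both are among the 20 best ranked members, and one more member, chr17:47157548-47157776, scored 42 and 26 at 270.9 kb from the second.

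The most members in any 1 Mb were 4, on chromosome 10, where 10 shared regions lay in the 1 Mb from the first member. Some of these 10 lay past the last member. From low to high coordinate the members were chr10:60228412-60228638 with scores of 35 and 44, chr10:60397243-60397469 with 61 and 49, chr10:60754555-60754781 with 25 and 23, and chr10:60833349-60833575 with 101 and 81. The members spanned 605 kb with gaps of 78.8 to 357 kb. On chromosome 2, the 11 shared regions counted over 1 Mb from 43184361 included only 3 members, the last ending at 43421601. The stretch of chromosome 2 from 62767505 to 62881379 is the reverse case, since all of its 3 shared regions were members. These stretches were chosen after their counts were seen.

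At the other end, 27 of the 368 members had no shared region within 1000 kb. The other 92.7% (89.5% to 94.9%) had one, against 87.9% (86.5% to 89.2%) of solitary regions of lower score. Over all shared regions it was 89.3%. Members were thus less often this isolated than the lower scored solitary regions. The most distant member, chr4:181002286-181002522, scored 38 in both lists and lay 2670.3 kb from its nearest shared region. It was followed by chr7:87856277-87856503 with scores of 32 and 42 at 2490.7 kb and chr1:106175572-106175798 with 35 and 41 at 2419.1 kb. The region chr6:86115071-86115306 scored 24 and 25 at 2266.4 kb, and chr8:52886080-52886332 scored 32 and 28 at 2161.3 kb. None of these 5 scored above 42, and their nearest neighbours scored at most 18. The chromosome 7 region nevertheless had a peak of replicate 1 alone at 2491 bp, scored 9.

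Members were found on all 22 autosomes. Chromosome 2 held the most, 50, followed by chromosome 3 with 31, chromosome 5 with 29 and chromosomes 1 and 11 with 28 each. As a share of the shared regions of a chromosome, they ran from 3.70% on chromosome 18 (1.02% to 12.5%) to 29.1% on chromosome 20, beside 12.7% overall. The interval of chromosome 20, 20.5% to 39.4%, was above that share, and the interval of chromosome 18 lay just below it. For the other 20 autosomes the interval included it. On chromosome X, 0 of 56 shared regions were strong. By the limit of 3 counts of the total that a count of 0 allows, the share could be up to 5.36%, and the Wilson interval ends at 6.42%. The highest region there reached 21 in its lower list.

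**Figure D5:**
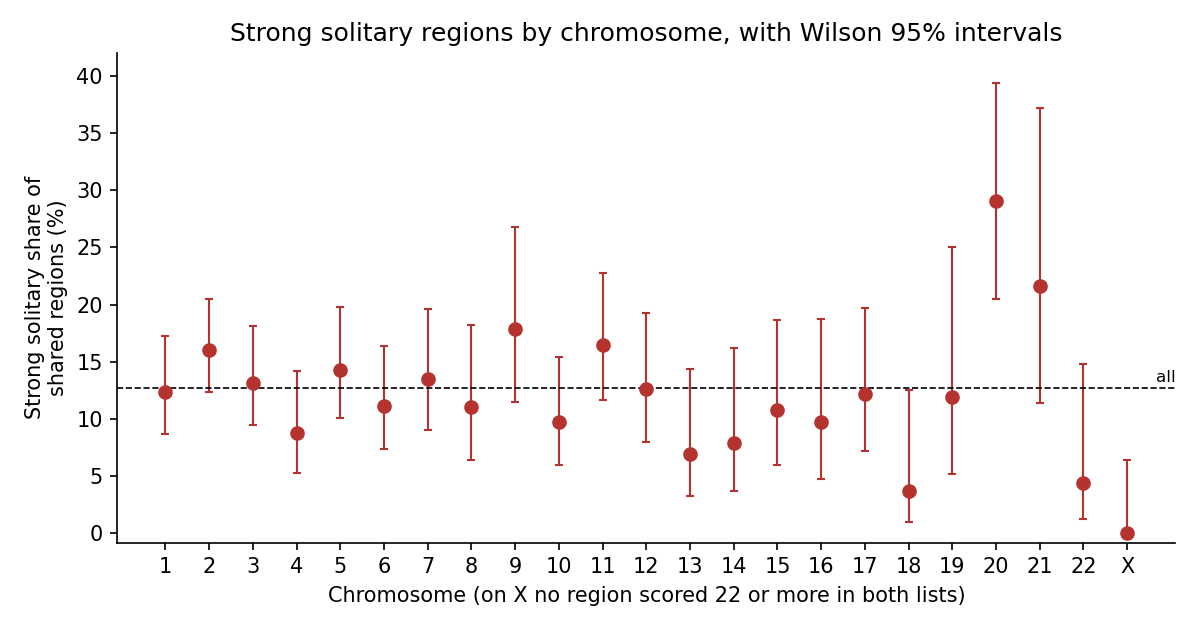
The share of shared regions on each chromosome that were strong solitary regions, in percent, with Wilson 95% intervals that cover counting error only. The dashed line is the 12.7% of all shared regions. Chromosome 20 stands at 29.1% with an interval above the line, and chromosomes 18 and 22 are lowest among the autosomes.

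Chromosome 20 held 25 of the 368 members, or 6.79%, but 2.96% of all shared regions. Without it, 343 of 2819 shared regions were members, or 12.2%. The scores chose the members, so this is a description with no test. Its members were also higher, with median scores of 44 and 34, against 36 and 28 in the other 343. They tilted more to replicate 1, with a median log2 ratio of 0.55 against 0.27. Over all 86 shared regions of the chromosome the median scores were 23 and 16, whereas the whole lists there had medians of 12 and 14. Over all chromosomes the shared regions had medians of 15 and 14, and the lists had 12 and 11. The replicate 1 list as a whole was thus not higher on chromosome 20. In replicate 1 the chromosome had 218 peaks and in replicate 2 it had 119.

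As a share of peaks, the difference was larger in replicate 2 than in replicate 1. When each list was taken alone, strong peaks more than 10 kb from every other peak made up 17.9% (13.4% to 23.5%) of replicate 1 peaks on chromosome 20. On the other chromosomes they were 15.3% (14.3% to 16.3%), and the intervals overlap. In replicate 2 the shares were 22.7% (16.1% to 31.0%) and 9.45% (8.66% to 10.3%). These shares rest on unlike peak totals for chromosome 20: 39 of 218 peaks in replicate 1 and 27 of 119 in replicate 2. On the other chromosomes the counts were 741 of 4842 and 457 of 4836. When each score was divided by its chromosome's median relative to the list, 20.9% (13.7% to 30.7%) of shared regions qualified on chromosome 20 and 11.7% (10.5% to 12.9%) elsewhere. The input coverage of this chromosome was not analysed here.

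Members of chromosome 20 ran from position 382539 to 62820923, but they were spread unevenly. After chr20:382539-382765 came only chr20:14590304-14590530 and chr20:16252106-16252359, and all others lay from position 30292469 onward. The highest in replicate 1 was chr20:42187445-42187671, with 97. The highest in replicate 2 was chr20:59753554-59753780, with 56 against 44 in replicate 1. The region chr20:33873905-33874160 scored 86 and 35, chr20:62372274-62372500 scored 81 and 41, and chr20:35972962-35973190 scored 75 and 30. Replicate 1 led by 2.46, 1.98 and 2.50 times at these 3 regions. Even regions were also present, such as chr20:46914521-46914747 with 25 in both lists and chr20:50847893-50848119 with 33 and 31.

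Chromosomes 18, 19 and 22 had 2 of 54, 5 of 42 and 2 of 45 shared regions as members. On chromosome 19 this was 11.9%, close to the 12.7% of all shared regions, and the interval of chromosome 22 (1.23% to 14.8%) also included that share. Chromosome 18 had chr18:7062895-7063121, scored 32 and 22, and chr18:9673155-9673381, scored 44 and 23. Chromosome 22 had chr22:29180199-29180425, scored 52 and 27, and chr22:35775239-35775465, scored 30 and 27. Of the 5 on chromosome 19, chr19:33766966-33767192 was the highest with 93 and 46, and the others scored at most 49 in replicate 1 and 30 in replicate 2. Chromosome 21 had 8 members among 37 shared regions, or 21.6% (11.4% to 37.2%). The highest of them in replicate 1, chr21:36391957-36392183, scored 51 and 31, and the highest in replicate 2, chr21:44154467-44154693, scored 25 and 32.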

How the data were processed

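Peaks had been called by the authors on each immunoprecipitation separately with HOMER findPeaks in factor style, per the file headers. Peaks had to pass a false discovery rate of 0.001 and to exceed both the input and the surrounding 10000 bp by 4-fold. The headers list fragments of 76 bp for the first replicate but 226 bp for the second, and every deposited peak was 143 bp or 227 bp wide. Bowtie 1.0.0, HOMER 1.2 and hg19 are named in the submitters' processing notes. The score deposited by the authors has no column name of its own. From its sum it was read as the tag count of a peak scaled to 10000000 tags and rounded, in which case 1 tag is worth 0.838 in replicate 1 and 0.541 in replicate 2.

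Shared regions were joined from peaks overlapping by at least 1 bp, taking the highest score per list. Midpoint distances and distances to neighbours were computed from these. Shares carry Wilson 95% intervals and medians carry order-statistic intervals. No hypothesis test was run, because members were chosen by score and spacing and each replicate is 1 library. Named regions were the 20 best ranked, 5 at each end of the score ratio, the 5 farthest from other shared regions and 3 on each side of each limit. Further regions were chosen after seeing values. The members and lists were chosen with earlier results of these data known. Positions count from 1. The steps were checked on made-up lists. Tables were handled with pandas 2.3.3 and numpy 2.4.6 under Python 3.11.15, intervals were taken from scipy 1.17.1, and plots were drawn with matplotlib 3.10.9.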

Additional observations from a re-analysis of the deposited data

How the results depend on the processing

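Of 91 recomputed values, 75 stayed within the 95% interval of the reported value or, for the number of members, within 1.5 times of it. The distance between replicate midpoints and the share of members with a close replicate 1 peak did so in all 12 settings each. Taking the lowest score per list could not change the members, since none had more than 1 peak per list. Its values, counted among the 75, equalled those reported. The number of members was 590, 201 and 134 with a score limit of 18, 26 and 30. It was 780 without HNF1 replicate 2 and 484 without HNF1 replicate 1, where peaks of a single list were counted. With the limit at 30 the median log2 score ratio was 0.17, and with the same rank limit in both lists it was 0.42. The median distance to a neighbour was 214754 bp beyond a 50 kb limit, 40083 bp to any peak, and 76464 to 99707.5 bp within a single list. The share of members with a strong nearest neighbour was 31.0%, 14.4% and 11.9% with the limit at 18, 26 and 30, where the meaning of strong changes too. Within single lists it was 11.98% and 22.6%. Of the shared regions on chromosome 20, 18.6% qualified with the limit at 30, against 4.19% on the other chromosomes. Within the single lists of replicates 1 and 2, 17.9% and 22.7% of its peaks did, against 15.3% and 9.45% elsewhere. Rank limit, scaling by chromosome, leaving out chromosome 20 and the 2 kb window were added after seeing the data. No paired analysis was possible because the peak lists carry no input values per region and a region has 1 score per replicate. The planned motif, promoter and gene list settings were not run, since no hg19 sequence or annotation was used here. Depth limits single scores: 22 is 26.2 tags in replicate 1.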
